A study of Homo sapiens with 6 samples.

Results

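The genes described here are 59 ribosomal protein pseudogenes, copies of ribosomal protein genes or of their messages that lie elsewhere in the genome. They are named after their source gene with a P and a number. They were chosen by symbol from the gene table, with a total of at least 200 counts over the 6 libraries, out of 1283 pseudogenes of this kind and 60780 rows in all. Each was set beside its parent, the intact gene it is named after, and the 59 pseudogenes had 37 different parents. The total count chose the members, so their levels are a description. The difference between the groups is no part of that rule, but the members were chosen with earlier results of these data known.

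The RNA came from LX-2, an established line of human hepatic stellate cells, kept for 24 h in conditioned medium of HCT116, a human line of colorectal carcinoma. The HCT116 cells carried an empty lentiviral vector (Vector-CM, n = 3) or a vector for overexpression of FGFBP1, a secreted protein that carries fibroblast growth factors (FGFBP1-CM, n = 3). FGFBP1 was raised in the cells that conditioned the medium and not in the sequenced cells, so its own level could not serve as a check of the labels. One line gave the medium and one line received it, and the labels do not say whether replicates were separate cultures, so p-values measure the spread between these samples, which may be technical.

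The ribosome joins a large subunit, whose proteins carry names beginning with RPL, and a small subunit, whose proteins carry names beginning with RPS. Their messages are abundant, short and shared by all cells, and reverse transcription of such messages has left the genome with many intronless copies, called processed pseudogenes. A copy has no promoter of its own to begin with, so most stay silent, while some are transcribed from their new surroundings. Because a young copy differs from its parent at few bases, a short read from the parent can match the copy equally well.

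Library totals ran from 14003780 to 18508113 counts. Of 16 stellate markers, 14 reached a mean of 1 CPM (counts scaled to library size), with VIM, SPARC, TIMP1 and COL1A1 the most abundant, DES was below 0.2 CPM in both group means and LRAT was at 0 in every library. The 16 summed to between 3579 and 3849 CPM under Vector-CM but to between 2781 and 3314 CPM under FGFBP1-CM, and TIMP1 was lower in FGFBP1-CM in the test across all genes. Of the 14 tested, 5 (35.7%) had an unadjusted p under 0.05 by edgeR, all lower, against 21.7% of all genes in either direction. The median log2 fold change of the 14 was -0.23. Of 12 colorectal epithelial markers only CDH17 and ELF3 reached a mean of 1 CPM, and EPCAM and CDH1 stayed below it. The 10 hepatocyte markers summed to between 40.7 and 43.9 CPM under Vector-CM but to between 18.1 and 28.0 CPM under FGFBP1-CM. ALB, APOB, AFP and FGA were lower in FGFBP1-CM in the test across all genes. That test was passed by 20 of 16707 genes (0.120%) in either direction. On the first principal component, which held 43.5% of the variance, FGFBP1-CM replicate 1 lay at 38.1, against 4.73 and 4.96 for the other FGFBP1-CM libraries and -18.3 to -12.9 for Vector-CM.

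Of the 59 pseudogenes, 38 came from large subunit genes and 21 from small subunit genes. RPSA, a small subunit protein also known as a laminin receptor, had 6 copies among them, and RPL23A and RPS3A had 3 each. They held 114481 counts, 90.1% of all counts given to the 1283 pseudogenes, and the 5 with the most counts held 32.9% of that. Another 611 pseudogenes had between 1 count and the minimum, and 613 had 0 counts in every library. Just inside the minimum were RPL13AP25, RPL11P3 and RPS23P8, with totals of 221, 218 and 217. Just outside were RPS11P5, RPL10AP6 and RPL7P23, with 185, 172 and 165. All 59 were counted in every library, never with fewer than 25 counts, and all 59 passed the filter on low counts.

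The stretches below show how little separates a counted copy from its parent. Each is read 5′ to 3′ from GENCODE release 29 (GRCh38) transcripts, in lower case, with the bases that differ between copy and parent in capitals. Positions count from 1 at the 5′ end of the copy's own model. The first pair is RPL14P1 at chr12:62965514-62965563 on the plus strand, bases 190 to 239 of its model, over the matching bases of RPL14, and it is shown because RPL14P1 was the member that changed. The substitutions from parent to copy are A206G, G210A and G221A.
RPL14P1: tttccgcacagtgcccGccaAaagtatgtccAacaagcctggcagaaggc
RPL14: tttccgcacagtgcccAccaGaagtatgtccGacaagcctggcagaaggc

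A second stretch of the same copy, chr12:62965813-62965862, covers bases 489 to 538 with the substitutions C498G, C501G and C520T. The copy had 8 substitutions and no gap over 645 bases.
RPL14P1: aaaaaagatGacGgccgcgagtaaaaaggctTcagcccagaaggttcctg
RPL14: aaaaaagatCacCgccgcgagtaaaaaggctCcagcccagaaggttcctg

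RPS2P5, the member with the most counts, is shown at chr12:118246104-118246153 on the plus strand, bases 21 to 70 of its model, with C32A and G36A. It carried 11 substitutions from RPS2, a small subunit protein.
RPS2P5: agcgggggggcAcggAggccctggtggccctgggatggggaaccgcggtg
RPS2: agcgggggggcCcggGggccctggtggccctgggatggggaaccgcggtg

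The copies RPL21P16, at chr10:120354763-120354812 on the minus strand, and RPL21P75, at chr7:20003136-20003185 on the plus strand, are shown because they differ from each other by a single base over their 483-base models. RPL21P16 was identical to RPL21, and RPL21P75 had only G397A.
RPL21P16: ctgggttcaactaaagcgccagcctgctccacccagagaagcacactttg
RPL21P75: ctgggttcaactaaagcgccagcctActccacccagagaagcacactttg

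RPL41P1, at chr20:21755270-21755344 on the plus strand, is shown as a copy without any difference, over the coding bases that precede the stop codon. RPL41P5 on chromosome 12 and the parent RPL41 have the same 75 bases, and RPL41 encodes the very short peptide of 25 codons known from the large subunit.
RPL41P1: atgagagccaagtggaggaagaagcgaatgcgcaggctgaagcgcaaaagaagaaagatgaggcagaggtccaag

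RPLP0P2 is shown as a copy that shares no 100-base window with its parent. Its 60 bases 1423 to 1482 hold 7 substitutions from RPLP0, the scaffold of the ribosomal stalk, namely A1425G, T1435C, T1442C, G1443C, G1444A, A1466G and A1482G. Its model spans chr11:61615036-61639449 in 6 exon blocks, and only 31.2% of its 3525 transcribed bases aligned with RPLP0.
RPLP0P2: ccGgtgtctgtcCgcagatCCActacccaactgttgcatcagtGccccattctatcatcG
RPLP0: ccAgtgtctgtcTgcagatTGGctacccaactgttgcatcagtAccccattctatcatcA

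As a class, the counted pseudogenes were closer to their parents than the rest. Their median identity to the parent transcript, over aligned bases with gaps left out, was 98.7%, against 91.7% for the 611 copies with fewer counts and 89.4% for the 613 copies with none. An identity of at least 98% was found in 39 of 59 members (66.1%), in 22 of 611 less counted copies (3.60%) and in 4 of 613 uncounted copies (0.653%). Annotation as transcribed was more frequent in the same order, with 18.6%, 4.26% and 2.28%. These shares were not tested, since copies are not replicates.

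**Figure D1:**
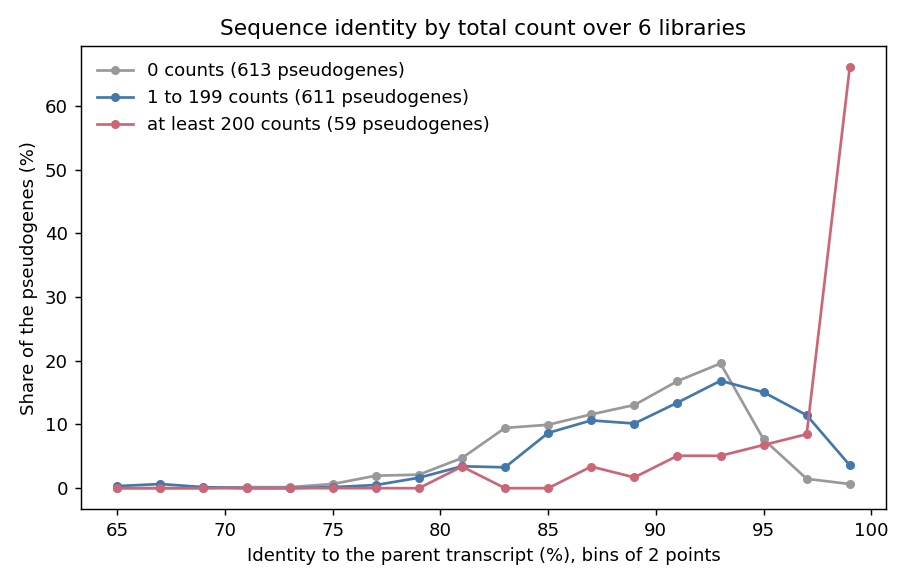
Share of the pseudogenes (vertical axis, %) by identity to the parent transcript (horizontal axis, bins of 2 percentage points) for copies with 0 counts, with 1 to 199 counts and with at least 200 counts over 6 libraries. Of the copies with at least 200 counts, 39 of 59 lie at 98% or above, where 22 of 611 and 4 of 613 of the others lie.

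Reads were about as long as the 100-base windows used to compare the copies. Of 57 members long enough to hold such a window, 40 (70.2%) shared at least 1 window exactly with the parent, compared with 12.1% of the less counted copies and 1.14% of the uncounted copies. RPL39P3, RPL21P16 and RPS28P7 shared every window with the parent, so that no 100-base read lying within their models could be told from the parent. The paper aligned paired-end reads to the genome, and reads or mates that reach past a model were not examined. These copies held between 327 and 500, between 231 and 279 and between 32 and 43 counts per library. RPL21P75, with its 1 substitution, held between 44 and 56 counts per library, well below the identical RPL21P16 at the same model length. RPL21P75 also shares 158 exon bases with AC005062.1 on the opposite strand, whereas RPL21P16 overlaps no other annotated gene. What part this had in the counts was not tested. The sources used here do not state how reads with several matches were counted.

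Another 17 members shared no window with the parent, among them RPSAP52, RPL32P3, RPLP0P2, RPL23AP82 and RPS18P9. Their median level per length was 4.66 FPKM (fragments per length and library size), against 18.0 FPKM for the 27 members sharing under 50% of windows and 53.2 FPKM for the 13 sharing at least 50%. Across the 59 members the rank correlation of FPKM with identity was 0.67, given as a description, since all the points come from the same libraries and copies of 1 parent draw on the same sequence. In 12 members every window was found in no other annotated transcript.

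**Figure D2:**
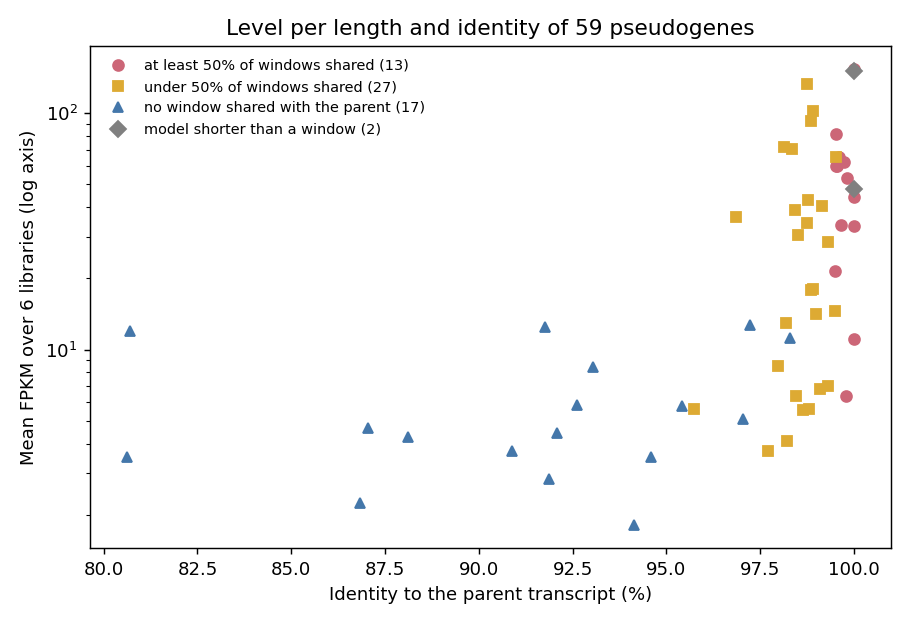
Mean FPKM over 6 libraries (vertical log axis) against identity to the parent transcript (horizontal axis, %) for the 59 pseudogenes, with symbols for the share of 100-base windows found in the parent. The 17 copies sharing no window lie between 1.80 and 12.7 FPKM, below the highest values of the copies that share windows.

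Per length, RPL39P3 (154 ± 18.6 FPKM, SD, n = 6), RPL41P1 (151 ± 19.96) and RPS2P5 (133 ± 6.16) stood highest, and RPL39P3 and RPL41P1 did not differ beyond their spread. RPL10P16, a copy of the gene for a late-joining large subunit protein, followed with 102 ± 7.54 FPKM, then RPLP0P6 with 92.4 ± 3.78 and RPL15P3 with 81.3 ± 4.25. RPSAP15 and RPL24P4 overlapped at 72.1 ± 5.24 and 70.3 ± 3.33 FPKM. The 4 members RPL7P1, RPL13AP5, RPL7P9 and RPSAP58 lay within 6 FPKM of each other, between 59.6 and 65.3. This order depends on model length, since FPKM divides by it. The models of RPL39P3 and RPL41P1 have only 156 and 81 bases, that of RPS2P5 879. By CPM RPL39P3 and RPL41P1 ranked only 20 and 28 among the members, with means of 24.1 and 12.3 CPM. RPS2P5 ranked 1 by CPM.

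By count, RPS2P5 led with 1972, 1696 and 1835 counts in Vector-CM and 2218, 1928 and 1800 in FGFBP1-CM. RPLP0P6 had 1548, 1294 and 1316 counts against 1605, 1482 and 1368. The groups overlapped for both on the scaled level, and the log2 fold changes were -0.03 ± 0.069 (SE) for RPS2P5 and -0.04 ± 0.068 for RPLP0P6. RPL10P16 held 1204, 1042 and 1002 counts against 1139, 974 and 1048, and its scaled level was lower in every FGFBP1-CM library (log2 fold change -0.18, adjusted p = 0.166, edgeR). RPSAP15 had 1040, 969 and 951 counts against 1136, 910 and 1050, and RPSAP58 had 936, 852 and 805 against 908, 787 and 872. RPL13AP5, with 723, 616 and 634 counts against 660, 629 and 631, was like RPL10P16 lower in every FGFBP1-CM library on the scaled level (log2 fold change -0.18, adjusted p = 0.205). RPL15P3, RPS2P46, RPL24P4 and RPSAP47 overlapped, with log2 fold changes from -0.05 to 0.05.

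**Figure D3:**
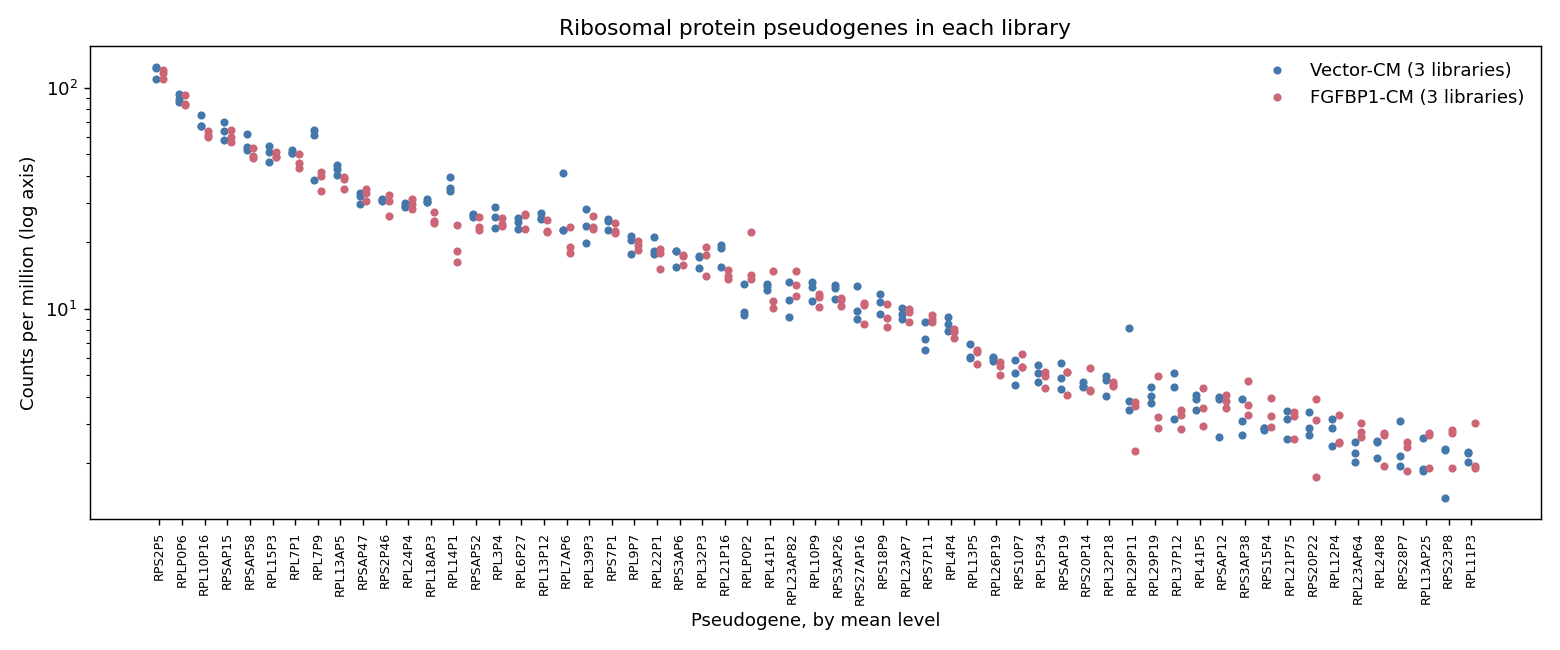
CPM (vertical log axis) of each of the 59 pseudogenes (horizontal axis, ordered by mean level) in the 3 Vector-CM and the 3 FGFBP1-CM libraries, 1 point for each library. Most groups of points overlap, RPL14P1 shows 3 Vector-CM points between 34.1 and 39.3 above 3 FGFBP1-CM points between 16.4 and 23.9, and single high points stand out for RPL7AP6 and RPL29P11 in Vector-CM and for RPLP0P2 in FGFBP1-CM.

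By CPM, which is not scaled to length, most copies were a minor signal beside the parent. In summed FPKM the members stood at 33.8% of the parents in Vector-CM and at 33.0% in FGFBP1-CM. The median member reached 2.75% of the CPM of its parent, 41 of 59 reached at least 1%, and 9 reached at least 10%. RPS2P5 stood at 16.7% ± 0.701 (SD, n = 6) of RPS2, RPL7P1 at 15.5% ± 2.13 and RPL7P9 at 15.1% ± 5.76 of RPL7, and RPS7P1 at 13.6% ± 0.263 of RPS7. RPL13AP25 had the lowest share, 0.351% of RPL13A, a large subunit protein. The shares of RPL26P19 (54.3%) and RPS10P7 (165%) stood apart beside parents of few counts, with a mean of 10.6 CPM for RPL26 and 3.39 CPM for RPS10. The RPS10 model shares 39.4% of its exon bases with the readthrough gene RPS10-NUDT3 and the RPL26 model shares 14.3% with AC135178.2, both on the same strand.

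The 6 copies of RPSA differed widely in level. RPSAP15 had a mean of 62.3 CPM, RPSAP58 53.1, RPSAP47 32.5 and RPSAP52 25.3 CPM, while RPSAP19 had 4.90 and RPSAP12 3.66 CPM. RPSAP52 was the least similar, with 81 substitutions and no shared window, and it lies antisense to HMGA2. Their log2 fold changes lay between -0.16 (RPSAP58) and 0.12 (RPSAP12), and none passed the test. The copies of RPS2, RPS2P5 and RPS2P46, both had 11 substitutions but stood at 117 and 30.5 CPM.

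Of the 59 members, 54 lie on another chromosome than the parent, and they are spread over 21 chromosomes. A single exon block was annotated for 51. RPL32P3 and RPL23AP82, with 7 and 6 exon blocks, were annotated as unprocessed pseudogenes. Inside or across another annotated gene lay 33, and 17 of these were in a protein-coding gene with at least 1000 counts, 7 on its strand and 10 on the other. Among those on the host's strand were RPS3AP38 in HERC4, RPS20P22 in FGFR1, RPL9P7 in APOO, RPS3AP26 in BAIAP2L1 and RPL24P8 in MAMDC2. For these, reads from the host's intron and from the copy within it cannot be told apart. For the 10 on the other strand the same holds unless strand was used, and the strand setting of the counting is not given in the sources used here.

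An open frame at least as long as that of the aligned parent transcript was kept by 30 of the 59 copies. In 7 of them, RPL39P3, RPL9P7, RPL22P1, RPL21P16, RPL41P1, RPL41P5 and RPS28P7, it encoded the same residues. For RPL22P1 this held against a transcript of only 95 codons, and 85.4% of its model aligned. Residues were compared in order without gaps, so an inserted codon puts all later residues out of register. By that count RPLP0P2, with 318 codons against 317, differed at 47 positions. RPS15P4, with 148 codons against 145, differed at 103, although its alignment held only 3 substitutions and 9 gap bases. The other 29 had a shorter frame or lacked the start, RPL37P12 with only 6 codons before its first stop. RPSAP52, RPL32P3 and RPL23AP82, with frames of 42, 55 and 86 codons, were counted at 12.4, 3.72 and 2.84 FPKM.

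The comparison of FGFBP1-CM with Vector-CM asked whether factors released under FGFBP1 overexpression changed the RNA of the stellate cells. Among 16707 genes tested with the quasi-likelihood test of edgeR, 20 passed an adjusted p of 0.05 (0.120%), and 1 of the 59 pseudogenes was among them. This was RPL14P1, a copy of the gene for the large subunit protein RPL14, and it was lower in FGFBP1-CM. An unadjusted p under 0.05 was reached by 9 members (15.3%), against 21.7% of all genes, of which 8 were lower and 1 was higher in FGFBP1-CM. The 3 libraries of each group did not overlap for 13 members (22.0%), against 26.0% of all genes. As a class, the members did not stand above the background.

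RPL14P1 had 610, 489 and 584 counts in Vector-CM and 310, 291 and 390 in FGFBP1-CM, or 34.1, 35.4 and 39.3 CPM against 16.4, 18.3 and 23.9 CPM. Every FGFBP1-CM library lay below every Vector-CM library. The group means were 36.3 ± 2.76 and 19.5 ± 3.90 CPM (SD, n = 3 each), and the log2 fold change was -0.90 ± 0.121 (SE, adjusted p = 0.0149, edgeR).

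In RNA from whole cultures, fewer cells of a kind and less RNA per cell cannot be told apart. The parent RPL14 differed far less. It had 7337, 6053 and 6397 counts in Vector-CM and 7994, 6756 and 6946 in FGFBP1-CM, and its group means were 426 ± 14.7 and 424 ± 1.64 CPM. Its log2 fold change was -0.01 ± 0.060 (adjusted p = 0.950, edgeR). RPL14P1 made up 8.31%, 8.08% and 9.13% of the RPL14 level in Vector-CM and 3.88%, 4.31% and 5.61% in FGFBP1-CM. The ratio differed by 0.90 on the log2 scale with no overlap, and the exact two-sided permutation test gave p = 0.1. That is the smallest p that 3 against 3 libraries allow, and any ratio without overlap gives it, so it does not set RPL14P1 apart. The ratio to the parent was without overlap for 4 members that were lower, RPL14P1 included, and for 6 that were higher in FGFBP1-CM.

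As its sequence above shows, RPL14P1 can be told from RPL14 over part of its length, and 66.5% of its 100-base windows occurred in no other annotated transcript while 33.5% occurred in RPL14. It overlaps no other annotated gene. The fall still passed the threshold with any single FGFBP1-CM library left out, also without replicate 1 (log2 fold change -0.78, adjusted p = 0.00340, edgeR). It missed the threshold without Vector-CM replicate 1, 2 or 3, with adjusted p = 0.0528, 0.0896 and 0.142 and log2 fold changes of -0.94, -0.91 and -0.83. The summed hepatocyte markers and the summed stellate markers were also lower in every FGFBP1-CM library, and their part in the result was not tested.

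RPLP0P2 was the highest of the members by fold change. It had 174, 180 and 139 counts in Vector-CM and 424, 227 and 223 in FGFBP1-CM, without overlap, at 10.7 ± 2.02 and 16.8 ± 4.87 CPM. The log2 fold change of 0.66 ± 0.185 missed the threshold (adjusted p = 0.0877, edgeR). When FGFBP1-CM replicate 1 was left out, which held the 424 counts and stood apart in the principal components, it was 0.39 (adjusted p = 0.173). The parent RPLP0 had -0.11 (adjusted p = 0.362).

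**Figure D4:**
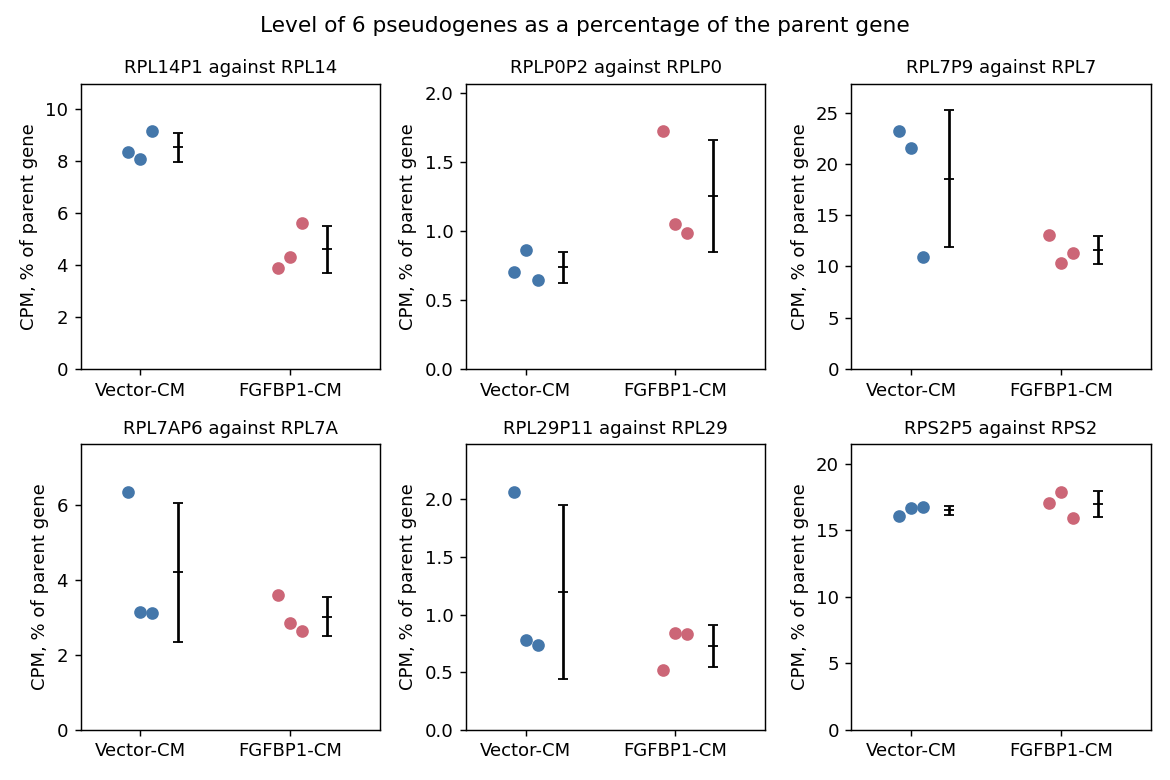
Level of 6 pseudogenes as a percentage of the CPM of the parent gene (vertical axes, starting at 0) in the 3 Vector-CM and the 3 FGFBP1-CM libraries, with 1 point for each library and the mean ± SD beside the points. RPL14P1 falls from 8.51% ± 0.551 to 4.60% ± 0.905 of RPL14 without overlap, RPL7AP6 and RPL29P11 have a single high Vector-CM library, and RPS2P5 stays near 16.7% of RPS2.

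For RPL7AP6, RPL29P11 and RPL37P12 the difference shrank most when Vector-CM replicate 1 was left out. RPL7AP6, a copy of the large subunit gene RPL7A, had 741 counts in Vector-CM replicate 1 and 315 and 338 in replicates 2 and 3, against 444, 304 and 292 in FGFBP1-CM. The log2 fold change was -0.53 (adjusted p = 0.144, edgeR), and without Vector-CM replicate 1 it was -0.17. RPL29P11 had 147 counts in the same library, 53 and 52 in the other Vector-CM libraries, and 43, 58 and 62 in FGFBP1-CM. Its log2 fold change of -0.72 ± 0.303 (adjusted p = 0.190) became -0.19 without Vector-CM replicate 1. In neither case did the parent follow, with -0.07 for RPL7A and -0.04 for RPL29. RPL37P12 had 92, 61 and 47 counts against 54, 53 and 57, and a log2 fold change of -0.41 (adjusted p = 0.259) that became -0.23 without Vector-CM replicate 1.

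The copies of RPL7, a large subunit protein, showed opposite signs to their parent. RPL7P9, with 2 substitutions in 747 bases, had 1155, 843 and 566 counts in Vector-CM and 790, 546 and 651 in FGFBP1-CM, with a log2 difference of -0.50 ± 0.151 (adjusted p = 0.0994, edgeR) and overlapping groups. RPL7P1, with 3 substitutions, had -0.14 (adjusted p = 0.279) and RPL7 had 0.14 (adjusted p = 0.362). In the libraries where RPL7P9 was highest the parent was lowest, with RPL7 at 278 and 282 CPM in Vector-CM replicates 1 and 2, and at 349 CPM in replicate 3. The sum of RPL7, RPL7P1 and RPL7P9 stood at 409 ± 26.3 CPM under Vector-CM against 419 ± 19.7 CPM under FGFBP1-CM, a difference within the spread of the libraries. The copies made up 23.1% of that sum. The group means of RPL7P9, 54.5 and 38.6 CPM, lay closer together than the SD of the sum, which therefore cannot show the change of this copy. The cause of the opposite signs was not tested.

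At the upper end, after RPLP0P2, came RPS23P8 (log2 fold change 0.33 ± 0.254), RPL23AP64 (0.31 ± 0.195), RPS7P11 (0.27 ± 0.133) and RPS3AP38 (0.25 ± 0.203), all with adjusted p above 0.25 and few counts. RPS7P11, for example, had 117, 120 and 109 counts in Vector-CM and 170, 149 and 143 in FGFBP1-CM, without overlap, while RPS7 had -0.05. RPS23P8 had 25, 32 and 34 against 36, 45 and 45 counts. RPL21P16, identical in sequence to RPL21, had 278, 268 and 279 counts against 260, 240 and 231, with a log2 difference of -0.32 (adjusted p = 0.126), where RPL21 had -0.00.

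**Figure D5:**
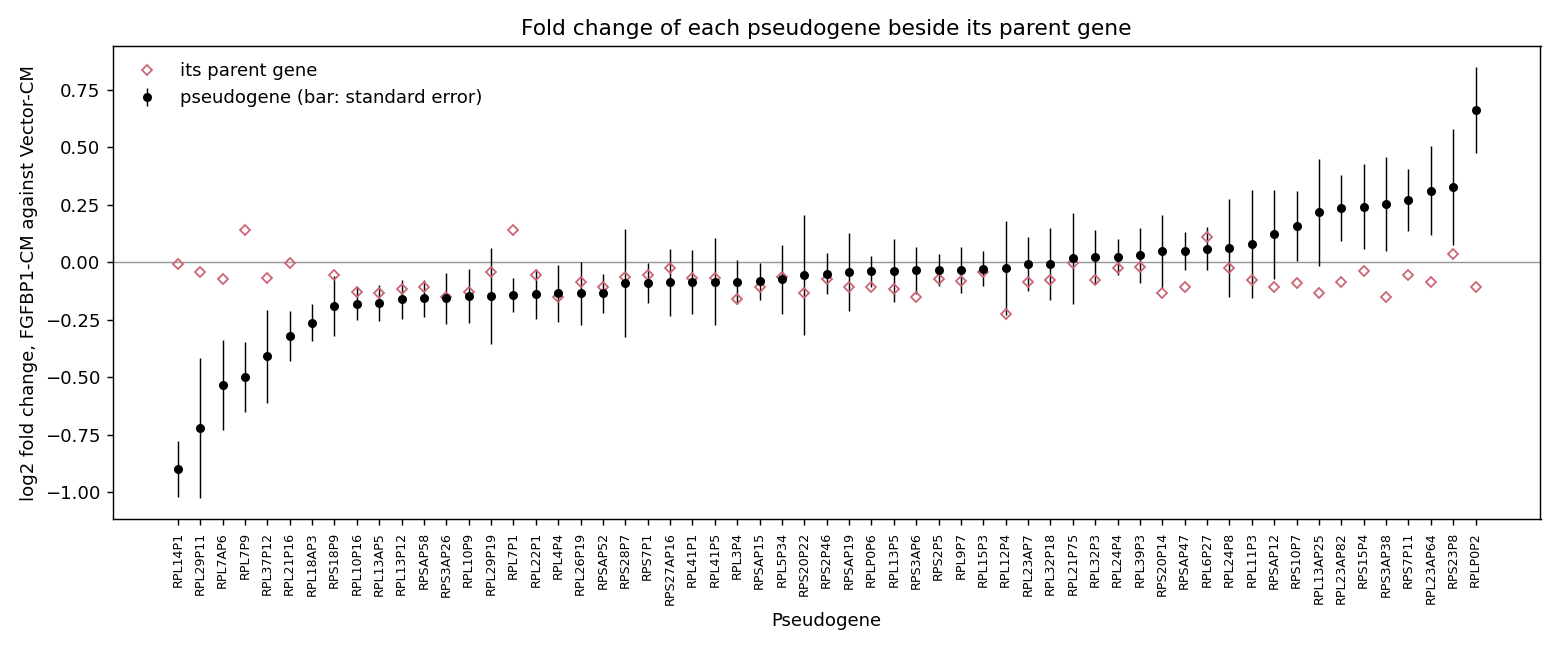
Log2 fold change of FGFBP1-CM against Vector-CM (vertical axis) for each of the 59 pseudogenes, ordered from lowest to highest, with the standard error as a bar, and for its parent gene as an open diamond, which is left out for 1 pseudogene. The pseudogenes run from -0.90 (RPL14P1) to 0.66 (RPLP0P2), while the parents stay between -0.22 and 0.14.

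Over all members the median log2 fold change was -0.05, with 40 lower and 19 higher in FGFBP1-CM, and 44 lay within 0.2 of 0. The 37 parents had a median of -0.07, with 34 lower and 3 higher, and all tested genes had a median of 0.00. None of the parents passed the test, and none passed under DESeq2. By edgeR 4 (10.8%) had an unadjusted p under 0.05, against 21.7% of all genes. Across the 59 pairs the rank correlation between the fold change of a copy and that of its parent was -0.03, as a description, with several copies sharing a parent and all pairs sharing the libraries. Standard errors of the members ran from 0.068 to 0.303 and exceeded 0.2 for 11 of them, so that small differences of weakly counted copies were not detectable at this depth.

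Together the members took 0.118%, 0.125% and 0.118% of the library in Vector-CM and 0.115%, 0.111% and 0.116% in FGFBP1-CM, a slightly lower share without overlap. The counts of the parents took 1.81%, 1.95% and 1.95% against 1.83%, 1.80% and 1.90%. As a percentage of the parents' counts, the members stood at 6.31% ± 0.235 in Vector-CM and 6.18% ± 0.0802 in FGFBP1-CM (SD, n = 3 each), and here the groups overlapped. With the deposited FPKM in place of counts the same percentage was 33.8% and 33.0%. FPKM divides by the length of the gene model, which for RPL14 is 8626 bases and for RPL14P1 645 bases.

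The wider set of genes showed a like pattern of small differences. Of 83 tested cytosolic ribosomal protein genes, the list that also holds the parents, none passed the test and DESeq2 called 0. An unadjusted p under 0.05 by edgeR was reached by 6 (7.23%), against 21.7% of all genes. The median log2 fold change was -0.08. Other terminal oligopyrimidine messages share with ribosomal protein messages a pyrimidine tract at the 5′ end and growth-dependent translation. Of 19 tested genes of this kind, none passed, 4 (21.1%) had an unadjusted p under 0.05 by edgeR, and the median was -0.09. DESeq2 called 1 of them, VIM (-0.26 by edgeR), and 4.94% of all genes. VIM, the intermediate filament gene, is also on the list of stellate markers. EEF1A1, the elongation factor that delivers tRNA, had -0.10 and EEF2, the translocation factor, -0.18, whereas NPM1, a nucleolar chaperone, had 0.03. EEF1G was at 0 in every library. Of 33 pseudogenes of other families with at least 200 counts, such as EEF1A1P5 (-0.18) and KRT8P12 (0.74), none passed by edgeR or DESeq2. An unadjusted p under 0.05 by edgeR was reached by 5 (15.2%), and the median was -0.02.

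The tested genes whose log2 CPM over the 6 libraries most resembled RPS2P5 were XRCC5 (Pearson r = 0.992), ANKRD9 (0.982), CMTM3 (0.981), H2AZ2P1 (0.981) and ZNF346-IT1 (0.970). These are the highest values among 16707 genes over only 6 libraries, and the parent RPS2 was not among them.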

How the data were processed

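RNA sequencing counts of 3 Vector-CM and 3 FGFBP1-CM libraries were used, with groups and replicate numbers from the labels. The authors extracted RNA with TRIzol and name poly(A) selection as well as depletion of ribosomal RNA. The submitters' processing notes name HISAT2 2.0.5, featureCounts 1.5.0-p3, DESeq2 1.16.1 and edgeR, and the build hg18. The lengths of all 59 pseudogenes in the deposited table equalled those of GENCODE release 29 (GRCh38), from which coordinates and sequences were read, and 3 symbols differed. The setting for strand and for reads with several matches is not given in the sources used here.

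The authors deposited raw counts per gene, and the deposited FPKM values are those of the authors, scaled per library and gene length. No fold change or p-value was taken from the deposited table. Counts were tested with edgeR 4.0.16 in R 4.3.3 (filterByExpr, TMM, quasi-likelihood test, Benjamini-Hochberg over 16707 genes), with CPM on TMM-scaled library sizes. Copies were aligned locally to the coding transcript of the parent that matched best (Biopython 1.88), and 100-base windows were compared over all annotated transcripts. The fit was tested on simulated data. Replicates differed beyond sampling noise.

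The members, lists and tests were chosen with earlier results of these data known. Named members were the 12 with the highest CPM, those past the threshold, the 5 highest and 5 lowest fold changes and those beside the minimum count. Genes that were named beyond this, such as RPL21P16 and the copies shown for their sequence, were chosen after their values were seen. Alternatives were scaling by RLE or by library size, a filter at 1 count or at a mean of 1 CPM, DESeq2 1.42.0, limma 3.58.1 on log2(FPKM + 1) and log2(FPKM + 0.1), a replicate block, a correction for GC content and length, other minimum totals and leaving out each library. The results of 1 parent gene and 1 host gene are not reported here.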

Additional observations from a re-analysis of the deposited data

How the results depend on the processing

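RPL14P1 was lower in FGFBP1-CM in every alternative, with log2 fold changes from -1.07 to -0.78 when a library was left out. It missed the threshold with limma on the deposited FPKM (-0.86 with a pseudocount of 1, adjusted p = 0.143, and -0.88 with 0.1, adjusted p = 0.135) and without any one Vector-CM library. The count of members past the threshold was 1 in the edgeR fit, where 0.120% of all genes passed. It was 2 with DESeq2, where 4.94% of 11848 genes passed, and 0 with limma on FPKM at either pseudocount (0.00599%). With no filter beyond 1 count it was 5, where 3.64% of 38002 genes passed. When a library was left out it was 0 to 2, where between 0.0239% and 5.15% of all genes passed. With DESeq2 and without FGFBP1-CM replicate 2 or 3 the additional member was RPLP0P2. Without FGFBP1-CM replicate 2 or 3, 5.15% and 2.02% of all genes passed. Without Vector-CM replicate 3 RPL7P9 passed in place of RPL14P1, where 0.0299% of all genes passed. With an unadjusted p under 0.05 by edgeR the count was 9 (15.3%), against 21.7% of all genes. The count stayed at 1 with a minimum total of 100, 500 or 1000.

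Same-numbered libraries correlated at -0.118, -0.022 and 0.148 in their deviations from the group means. With 3 libraries in each group these values cannot settle whether the replicate numbers pair the samples, and the labels do not say. With the replicate block 90 genes passed in place of 20, and RPL14P1 remained the only member (-0.91, adjusted p = 0.0118). The median log2 fold change of the members moved between -0.11 and -0.01, and that of the parents between -0.11 and -0.04, when a library was left out. With the GC and length correction the median of the members was 0.01. The member share of the library (FGFBP1-CM minus Vector-CM, main value -0.00630 percentage points) moved between -0.00760 and -0.00399 without a library and was -0.0447 with FPKM. The same difference for the members' counts as a percentage of the parents' counts (-0.135 points) moved between -0.266 and -0.0409 and was -0.855 with FPKM. Calls among the parents stayed at 0 in every alternative. Among all cytosolic ribosomal protein genes 1, RPS9, passed with no filter, where 3.64% of all genes passed. Among other pseudogene families 1, KRT8P12, passed with no filter, and among other terminal oligopyrimidine genes 1, VIM, passed with DESeq2, with no filter and without FGFBP1-CM replicate 2.

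Signs turned only for log2 fold changes far from the threshold, and the cause was not tested. With the GC and length correction, RPS2P5 was 0.068, RPLP0P6 0.0089, RPL15P3 0.065, RPS2P46 0.053, RPL29 0.036 and RPS23 -0.0058, and with the replicate block added they were 0.071, 0.0087, 0.068, 0.048, 0.043 and -0.0065. With library size only, RPS2P5 was 0.0011, RPL15P3 0.0056, RPL24 0.0083 and RPL14 0.025. With limma on FPKM the same genes were 0.00048, 0.0059, 0.0090 and 0.0247 at a pseudocount of 1 and 0.00049, 0.0059, 0.0091 and 0.0252 at 0.1. RPL14 was 0.0037 with no filter. Without 1 library, values ran from -0.084 to 0.0031 for RPS2P5, -0.091 to 0.027 for RPL15P3, -0.12 to 0.031 for RPS2P46, -0.016 to 0.057 for RPL24P4, -0.17 to 0.21 for RPL11P3, -0.089 to 0.042 for RPL24, -0.035 to 0.013 for RPL14, -0.13 to 0.018 for RPL29 and -0.0065 to 0.086 for RPS23.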
